A study of Sus scrofa with 10 samples.

Results

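Solute carriers (SLC) are the membrane proteins that move nutrients, ions, metals, vitamins and metabolites into cells, out of them and between their compartments. The SLC genes described here were those whose symbol begins with SLC and a number in the annotation of a porcine Affymetrix array. There were 119 of them among 6765 named genes, on 175 of 24123 probe sets, and where a gene had several probe sets the one brightest on average stood for it. Of the 119, 116 encode carriers or their subunits, and 3 encode regulators that take their symbol from a carrier (SLC2A4RG, SLC9A3R1 and SLC9A3R2). The largest families by symbol were SLC25 with 21 genes, SLC35 with 9 and SLC2 with 8, the regulator SLC2A4RG among the last. The SLC25 genes are called mitochondrial carriers here, though not every member lies in the mitochondrial inner membrane. 1 further gene was left out when the set was chosen and is not reported here.

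The cells were fetal fibroblasts from pigs of the cross Danish Landrace/Yorkshire x Duroc at fetal day 24, grown from the whole fetus without the head, in serum-containing medium on gelatin. The series title calls them a cell line. Magnetic beads with an antibody to SSEA-1, a fucosylated surface glycan, divided them into an SSEA1+ and an SSEA1- fraction. There were 5 biological replicates, each giving both fractions, and total RNA of each fraction was hybridised to 1 array, 10 in all. The labels do not say whether the replicates were separate animals or cultures, so p-values measure the spread between these samples, and their number limits the precision.

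Carriers sort by energy source and by place. Facilitators such as the SLC2 hexose carriers let a solute run down its gradient, sodium-coupled carriers such as SLC1 and SLC38 draw on the gradient kept by the sodium pump, and exchangers such as SLC7 with an SLC3 heavy subunit swap amino acids across the membrane. Other families work inside the cell: SLC25 mostly in mitochondria, SLC35 in the Golgi and ER, and parts of SLC30, SLC39 and SLC38 in organelles. Dividing fibroblasts in culture take up glucose and glutamine and release lactate, which makes these routes the best known in this cell type.

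All values are log2 signals, and the background level was 0.352, a level that 95% of the readings of 23 controls, for sequences absent from pig RNA, stayed under. Of each array's probe sets, 69.3% to 72.5% lay above it. Among cell type markers, 9 of 9 measured fibroblast genes were above background on all 10 arrays, with VIM at 11.25 in SSEA1+ and 11.24 in SSEA1-, while COL3A1 was dim at 0.75 and 0.68. COL1A2 was the marker that passed the test described below, at 6.13 and 4.94, and THY1, 0.34 higher in SSEA1+, passed when replicate numbers were blocked (adjusted p = 0.0564 without the block and 0.0146 with it, in limma). Among the rest, COL3A1, PDGFRB and VIM differed by 0.07, 0.08 and 0.01. FN1, LUM, DCN and S100A4 went the other way, by -0.13, -0.10, -0.09 and -0.09, and none of these passed. The summed linear signal of the 9 fibroblast markers ran from 4543 to 5035 over SSEA1+ arrays and from 4722 to 5140 over SSEA1- arrays. Of 5 endothelial markers, CDH5 and TEK were above background on no array, KDR on 2, and PECAM1 and VWF on all 10 at levels near it (0.80 and 0.83 for PECAM1, 0.54 and 0.48 for VWF). Of 3 blood markers, PTPRC was on no array, CD14 on 9 and HBB on all 10 (4.38 and 4.54), and of 3 muscle markers DES was on all 10 (7.20 and 6.92), MYF5 on 8 and MYOD1 on 6. Of 5 epithelial markers, 3 read higher in SSEA1+ with unadjusted p under 0.05 in limma and missed the adjusted threshold. These were EPCAM at 0.44 and 0.20 (adjusted p = 0.105 in limma), CDH1 at 0.53 and 0.35 (adjusted p = 0.173) and CLDN4 at 1.09 and 0.85 (adjusted p = 0.195). EPCAM was above background on 5 arrays, 4 of them SSEA1+, and CDH1 on 8, while KRT8 (5.42 and 5.47) and KRT18 (1.45 and 1.54) were on all 10. The summed linear signal of 5 epithelial markers ran from 33.2 to 89.5 over SSEA1+ arrays and from 33.9 to 102.8 over SSEA1- arrays, most of it from KRT8, that of 5 endothelial markers from 5.97 to 6.95 and from 6.42 to 6.68, that of 3 muscle markers from 111.2 to 202.8 and from 71.3 to 154.6, and that of 3 blood markers from 20.9 to 26.6 and from 23.1 to 27.7. GFAP was the single neural marker measured, at 0.64 and 0.47. The poly-A spike-in controls, added to the RNA before labelling, stood 0.82 higher on the log2 scale in SSEA1+ relative to the hybridisation controls, at -3.20 ± 0.32 against -4.02 ± 0.25 (SD, n = 5 each; exact two-sided permutation p = 0.00794, the smallest that 5 against 5 arrays allow). That difference runs with the fractions in every comparison below, and values fitted with the poly-A level are given for the genes that passed or came near the threshold. The part of the marker differences in the results was not tested.

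Most SLC genes gave a signal in these cells. Of the 119, 84 were above background on all 10 arrays, 27 on 1 to 9 arrays and 8 on none, or 70.6% on all arrays against 79.9% of all genes. Raising the bar to the highest control value on any array, 0.582, a choice made after the data were seen, left 77 on all arrays. The genes lost by this were SLC2A4, SLC7A4, SLC16A13, SLC22A6, SLC23A2, SLC29A1 and SLC45A2. Signals of different probe sets depend on their own sequence, so levels are not ranked between genes, and a gene not above background is not shown to be absent.

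**Figure D1:**
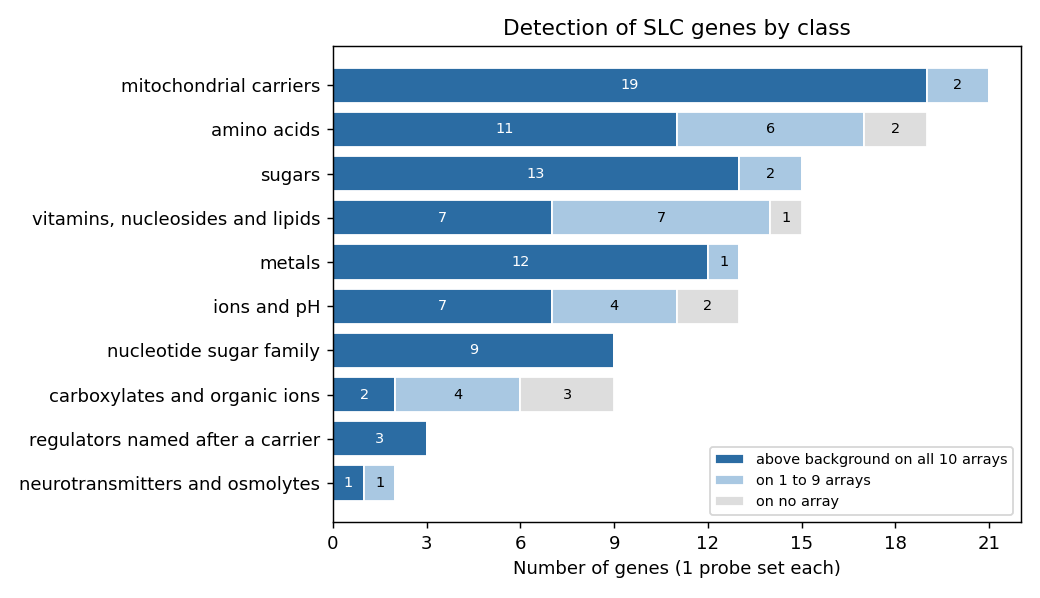
Number of SLC genes in each substrate class (bars, each gene by 1 probe set) that were above background on all 10 arrays, on 1 to 9 arrays or on no array. All 9 genes of the SLC35 family, 19 of 21 mitochondrial carriers and 12 of 13 metal carriers were detected throughout, against 2 of 9 carriers of carboxylates and organic ions.

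Of the mitochondrial carriers 19 of 21 were above background on all arrays, with SLC25A48 above it on 2 and SLC25A51 on 3, and all 9 SLC35 genes were (SLC35A3, SLC35A4, SLC35B1, SLC35B2, SLC35B3, SLC35C2, SLC35D2, SLC35F5 and SLC35F6). Of 13 metal carriers 12 were, namely the zinc carriers SLC39A1, SLC39A2, SLC39A4, SLC39A5, SLC39A7, SLC39A14, SLC30A3 and SLC30A5, the copper carriers SLC31A1 and SLC31A2, the iron and manganese carrier SLC11A2 and the magnesium carrier SLC41A1. Of these SLC39A2 (0.80 in SSEA1+ and 0.79 in SSEA1-) and SLC39A14 (0.89 and 0.79) were near background. SLC11A1, the metal carrier of phagosomes in macrophages, was above it on 6 arrays.

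Of 9 carriers of carboxylates and organic ions, SLC16A13 and SLC22A6 were detected on all arrays, near background, with lowest readings of 0.49 and 0.38. The lactate exporter SLC16A3 was on 6, the carnitine carrier SLC22A5 on 5, SLC22A8 on 7 and the bile acid carrier SLC10A1 on 1, while SLC22A2, SLC22A3 and SLC17A1 were on none. Among 19 amino acid and peptide carriers, 11 were detected throughout: SLC1A4, SLC1A5, SLC1A6, SLC3A1, SLC3A2, SLC7A1, SLC7A4, SLC7A7, SLC38A1, SLC38A9 and SLC38A10. Of these SLC1A6 (0.92 in SSEA1+ and 0.92 in SSEA1-), SLC7A4 (0.52 and 0.58) and SLC7A7 (0.99 and 0.77) were near background. The glutamate carriers SLC1A1 and SLC1A3 were above background on 9 and 6 arrays, SLC36A2 on 3, SLC6A14 on 2 and SLC15A2 on 1. SLC7A9 of kidney and gut and SLC1A2, the main glutamate carrier of astrocytes, were on no array, and the intestinal peptide carrier SLC15A1 was on 8. Of 15 sugar carriers 13 were detected throughout (SLC2A1, SLC2A3, SLC2A4, SLC2A5, SLC2A8, SLC2A12, SLC5A4, SLC5A10, SLC37A1, SLC37A4, SLC45A2, SLC45A3 and SLC50A1), and the exceptions were the intestinal sodium-glucose carrier SLC5A1 on 1 array and SLC2A2, the hexose carrier of liver and pancreatic islets, on 7. Of the 13, SLC2A4 (0.75 in SSEA1+ and 0.61 in SSEA1-), SLC45A2 (0.70 and 0.66), SLC5A4 (0.88 and 0.90) and SLC5A10 (0.82 and 0.86) were near background. Of 13 ion and pH carriers, 7 were detected throughout (SLC4A2, SLC4A4, SLC8B1, SLC9A5, SLC12A4, SLC26A6 and SLC26A11), SLC9A3 was on 6, SLC5A5, the iodide carrier of the thyroid, on 4, the sodium-calcium exchanger SLC8A1 on 3 and the phosphate carrier SLC34A2 on 1, and SLC9A4 and SLC26A3 of the gut were on none. Near background among the 7 was SLC26A6, at 0.89 in SSEA1+ and 0.81 in SSEA1-. Of 15 carriers of vitamins, nucleosides and lipids, 7 were detected throughout (SLC5A6, SLC23A2, SLC29A1, SLC33A1, SLC44A2, SLC46A1 and SLC52A2), with SLC29A1 near background at 0.59 and 0.58. SLC27A1 was on 9, SLC46A2 on 5, SLC27A6 and SLC44A4 on 4 each, and SLC28A1, SLC28A3 and SLC46A3 on 1 each. The ascorbate carrier SLC23A1 of epithelia was on none (0.09 in SSEA1+ and 0.10 in SSEA1-). Its widely expressed relative SLC23A2 was on all 10, but near background at 0.45 and 0.49, with the lowest array at 0.353. The creatine carrier SLC6A8 was on all arrays, and the serotonin carrier SLC6A4 on 1.

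The comparison of the fractions asked which carriers differ with SSEA-1. In SSEA1+ cells SLC37A4, SLC35F6, SLC38A1 and SLC26A11 rose, from 1.24-fold for SLC38A1 to 1.34-fold for SLC35F6, and SLC25A14 fell by 0.59 on the log2 scale. These 5 of 119, or 4.20%, passed limma at an adjusted p under 0.05 over all probe sets. The share among all 6765 genes was 7.39%, with 3.21% higher and 4.18% lower. Which share was the larger changed with the setting: it was 8.40% of SLC genes against 7.27% of all genes with repeated quantile normalization, 7.35% with cyclic loess and 7.30% with median centring, and 9.78% against 9.40% with the filter on low values. Among the 84 detected on all arrays the same 5 passed, where the share of all genes detected on all arrays was 9.23%. With the mean over probe sets 2 of the 5 passed, SLC25A14 and SLC38A1, where 6.46% of all genes did, and SLC35F6 read 0.06. With bulk RNA, fewer cells of a type and less RNA per cell cannot be told apart.

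Of the 119, 73 read higher in SSEA1+ and 46 lower, or 61.3% higher against 47.6% of all genes, and their median log2 difference was 0.03 against -0.01 for all genes. At an unadjusted p under 0.05, 17 were higher and 3 lower. Among all genes, 10.3% were higher and 13.5% lower at that level. The fractions did not overlap for 7 SLC genes, 6 of them higher, or 5.88% against 8.51% of all genes. The within-fraction SD had a median of 0.140 for SLC genes and 0.142 for all genes. These counts describe the set and carry no test. Another scaling moved the split of calls among all genes from 217 higher and 283 lower to 273 and 219 with repeated quantile normalization and 273 and 224 with cyclic loess, and among SLC genes from 4 and 1 to 9 and 1.

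**Figure D2:**
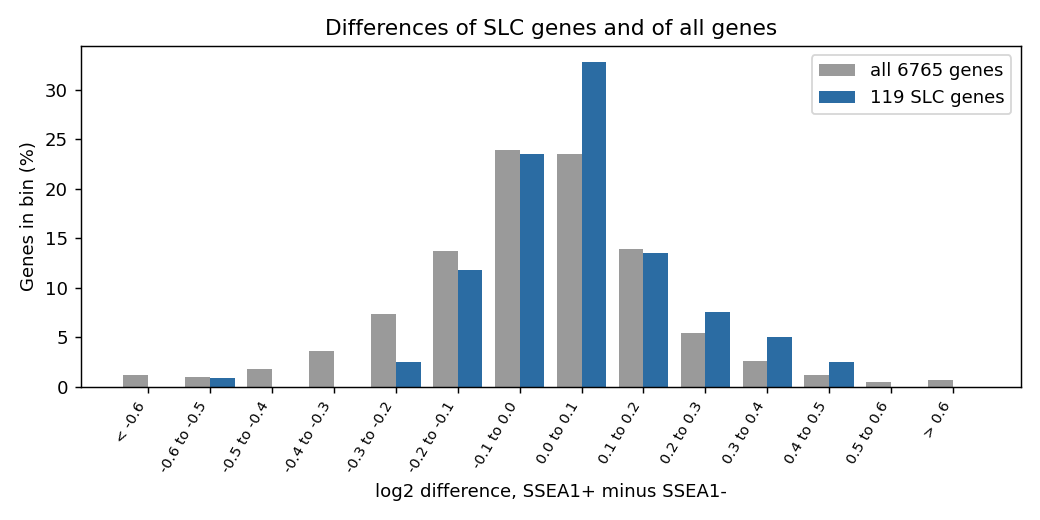
Share of genes (percent, vertical axis) by log2 difference between SSEA1+ and SSEA1- in bins of 0.1 (horizontal axis), for all 6765 genes in grey and the 119 SLC genes in blue. The outermost bins are open. All SLC genes lie between -0.59 and 0.42, with 73 of 119 above 0 and SLC25A14 the single one below -0.5.

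With the replicate number as a block 12 SLC genes passed, 10 higher and 2 lower, of which 5 were those passing without it. Among all genes the block called 14.3%, with 5.65% higher and 8.62% lower. The number of SLC genes that rose was 0 without SSEA1- replicate 4 and 1 without SSEA1+ replicate 1, 3 or 5 or without SSEA1- replicate 3 or 5. It was 2 without SSEA1+ replicate 2, 9 without SSEA1+ replicate 4 and 8 without SSEA1- replicate 2. The share of all genes called in either direction was 5.22% without SSEA1- replicate 4 and 3.96% to 5.10% in the settings with 1 rise. Without SSEA1+ replicate 2, SSEA1+ replicate 4 or SSEA1- replicate 2 that share was 5.1%, 8.88% and 9.80%. No SLC gene passed in limma without both arrays of replicate 1, 3 or 5, with 16, 18 and 17 at an unadjusted p under 0.05. Of all genes 2.17%, 2.10% and 1.70% passed in those settings. Once the poly-A level entered limma as a covariate, 0 SLC genes passed (8 at an unadjusted p under 0.05), and likewise 0 when the block was added (7 at that level). Hardly any gene of the whole array passed there, 0.0887% of all genes with the covariate and 0.0148% with the block as well.

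Among amino acid carriers 1 passed. SLC38A1 (Entrez 100154364), a sodium-coupled carrier of glutamine and other neutral amino acids, read 6.03, 5.86, 5.99, 5.90 and 5.96 in SSEA1+ replicates 1 to 5 and 5.69, 5.79, 5.72, 5.38 and 5.65 in SSEA1-. All 5 positive arrays lay above all negative ones, and the lowest array was SSEA1- replicate 4. SLC38A1 rose by 0.31 ± 0.08 (SE, adjusted p = 0.0425 in limma), its second probe set rose by 0.50 ± 0.10 (SE, adjusted p = 0.0117), and the remaining probe set read 0.21 without passing. Its call held without SSEA1+ replicate 4 or SSEA1- replicate 2 and ended without any other single array, at adjusted p of up to 0.0991. It read 0.33 ± 0.16 (SE) with the poly-A covariate and 0.57 ± 0.23 (SE) with the block beside it.

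SLC1A5, the sodium-dependent neutral amino acid exchanger that is a main glutamine route of growing cells, read 6.84, 6.76, 6.94, 6.80 and 6.66 in SSEA1+ and 6.58, 6.64, 6.60, 6.47 and 6.34 in SSEA1-. Its fractions too did not overlap, and it was higher in 5 of 5 pairs. The difference of 0.28 ± 0.08 (SE) missed the threshold at an adjusted p of 0.0545 in limma and passed with the replicate block, at 0.0237. With the poly-A covariate SLC1A5 read 0.08 ± 0.14 (SE).

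Of the other amino acid carriers none passed. SLC1A4, a close relative of SLC1A5, read 2.12 ± 0.27 against 1.87 ± 0.09 (SD, n = 5 each), with SSEA1+ replicate 4 at 1.68 below every negative array. SLC7A7, a light subunit that exchanges cationic for neutral amino acids, read 0.99 ± 0.15 against 0.77 ± 0.08 (SD), higher in 5 of 5 pairs at an adjusted p of 0.141 in limma. Its partner SLC3A2, the heavy subunit shared by several such exchangers, differed by 0.12 with a 95% interval of -0.04 to 0.28. The cationic amino acid carrier SLC7A1 differed by 0.04 with an interval of -0.15 to 0.22. In all, 1 of 19 members of this class rose, or 5.26%, none fell in limma, 13 read higher, and the median difference was 0.03. Of all genes 3.21% rose, 4.18% fell and 47.6% read higher. At an unadjusted p under 0.05 in limma there were 5 of the class, all higher, against 10.3% of all genes higher and 13.5% lower.

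Sugar carriers gave 1 rise. SLC37A4 (Entrez 100516688), the ER carrier that feeds glucose 6-phosphate to glucose 6-phosphatase, read 2.18, 2.26, 2.27, 2.61 and 2.36 in SSEA1+ and 1.88, 2.04, 1.82, 1.79 and 2.13 in SSEA1-. The highest negative array, replicate 5, lay just under the lowest positive array, replicate 1. SLC37A4 rose by 0.41 ± 0.09 (SE, adjusted p = 0.0227 in limma), or 1.33-fold. Its second probe set read 0.45 ± 0.18 (SE) at an adjusted p of 0.169, and the mean of both read 0.43 at 0.0651. The call ended without SSEA1+ replicate 5 or SSEA1- replicate 1, 3 or 4, at up to 0.0644. SLC37A4 read 0.69 ± 0.16 (SE) with the poly-A covariate at an adjusted p of 0.119, and 0.74 ± 0.28 (SE) with the block beside it.

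SLC2A1, the glucose carrier of most growing cells, read 5.04, 5.28, 4.99, 4.87 and 4.94 in SSEA1+ and 4.68, 4.98, 4.59, 4.53 and 4.31 in SSEA1-. It was higher in 5 of 5 pairs, and the fractions overlapped through SSEA1- replicate 2. The difference of 0.40 ± 0.11 (SE) missed the threshold at an adjusted p of 0.0561 in limma and passed with the replicate block, at 0.00584. With the poly-A covariate SLC2A1 read 0.41 ± 0.22 (SE).

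SLC2A3, a high-affinity glucose carrier, varied between replicates far more than between fractions. It read 3.12, 3.38, 2.20, 3.37 and 3.21 in SSEA1+ and 3.37, 3.90, 2.63, 2.51 and 3.51 in SSEA1-, lower in 4 of 5 pairs and higher in replicate 4. The fructose carrier SLC2A5, named after its values were seen, read 3.77, 4.74, 4.21, 3.08 and 3.43 against 3.29, 4.28, 4.01, 3.86 and 2.52, higher in 4 of 5 pairs and lower in replicate 4. Of the 119 genes these had the largest within-fraction SD, 0.674 for SLC2A5 and 0.543 for SLC2A3. Their differences had wide 95% intervals, -0.47 to 0.98 for SLC2A5 and -0.72 to 0.46 for SLC2A3, which hold both 0 and the difference read in SLC2A1.

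**Figure D3:**
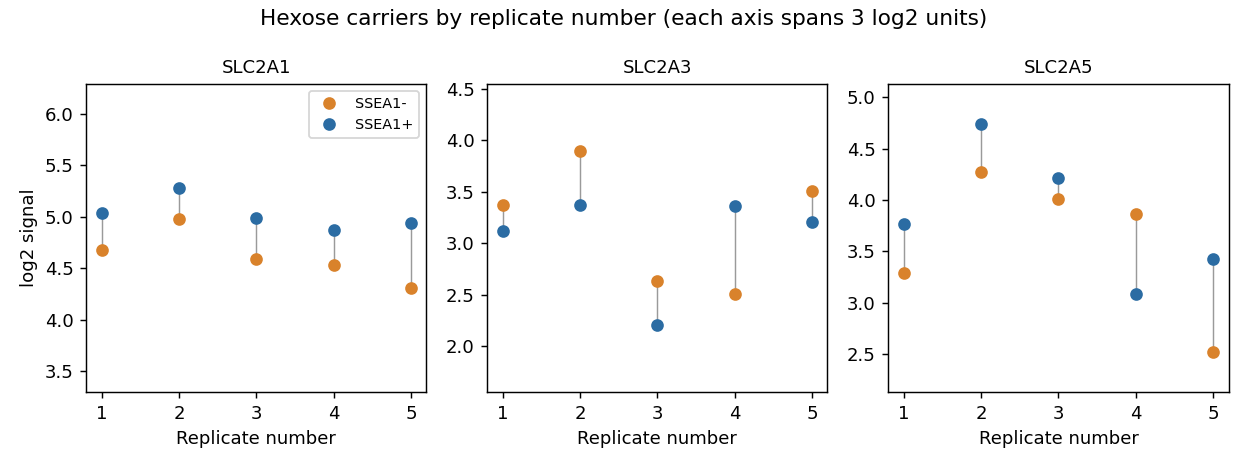
Log2 signal (vertical axis, each spanning 3 units) of the hexose carriers SLC2A1, SLC2A3 and SLC2A5 by replicate number (horizontal axis), SSEA1- in orange and SSEA1+ in blue, with a grey line joining arrays of the same number. SLC2A1 is higher in SSEA1+ in all 5 pairs, while SLC2A3 and SLC2A5 range over more than 1 log2 unit between replicates and turn the other way in replicate 4.

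In this class 1 of 15 rose, none fell in limma, and 11 read higher, with a median of 0.07 and 3 at an unadjusted p under 0.05, all higher. Of all genes 3.21% rose, 4.18% fell and 47.6% read higher, and 10.3% were higher at the unadjusted level. SLC45A3, a carrier best known from prostate, read 1.43 ± 0.27 against 1.14 ± 0.15 (SD) at an adjusted p of 0.180 in limma.

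Mitochondrial carriers held the single fall. SLC25A14 (Entrez 100525444), also known as UCP5 and related to the uncoupling proteins, read 1.49, 1.48, 1.45, 0.97 and 1.64 in SSEA1+ and 1.92, 1.78, 1.91, 2.23 and 2.13 in SSEA1-. All positive arrays lay below all negative ones, and SSEA1+ replicate 4 was far below the other 4. SLC25A14 fell by 0.59 ± 0.12 (SE, adjusted p = 0.0137 in limma), and its second probe set fell by 0.38 ± 0.08 (SE, adjusted p = 0.0186). The call held without any single array, with -0.48 ± 0.10 (SE) without SSEA1+ replicate 4, and it ended without both arrays of replicate 1, 3 or 5, at 0.0595, 0.0608 and 0.0501. With the poly-A covariate SLC25A14 read -0.68 ± 0.23 (SE, adjusted p = 0.256) and with the block beside it -1.31 ± 0.32 (SE).

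The carriers that supply oxidative phosphorylation did not pass. The phosphate carrier SLC25A3 read from 8.85 to 9.14 in SSEA1+ and from 8.92 to 9.10 in SSEA1-, a difference of 0.01 with a 95% interval of -0.15 to 0.17. The ADP/ATP carriers SLC25A4 and SLC25A5 differed by -0.09 (interval -0.27 to 0.09) and 0.05 (interval -0.15 to 0.26). A further ADP/ATP carrier, SLC25A6, named after its values were seen, read 8.96 in both fractions, a difference of 0.01 (interval -0.14 to 0.16). SLC25A38, which brings glycine in for heme synthesis, read 3.05 ± 0.20 against 3.32 ± 0.09 (SD), lower in 5 of 5 pairs, with an adjusted p of 0.111 in limma and 0.0353 with the replicate block; its second probe set read -0.08. The citrate carrier SLC25A1 read 4.82 ± 0.18 against 4.58 ± 0.07 (SD), higher in 5 of 5 pairs, with an adjusted p of 0.135. Of the 21 mitochondrial carriers 13 read lower, and the median was -0.04, with 1 higher and 2 lower at an unadjusted p under 0.05. The share that read higher was 38.1%, against 47.6% of all genes. At the unadjusted level 10.3% of all genes were higher and 13.5% lower.

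**Figure D4:**
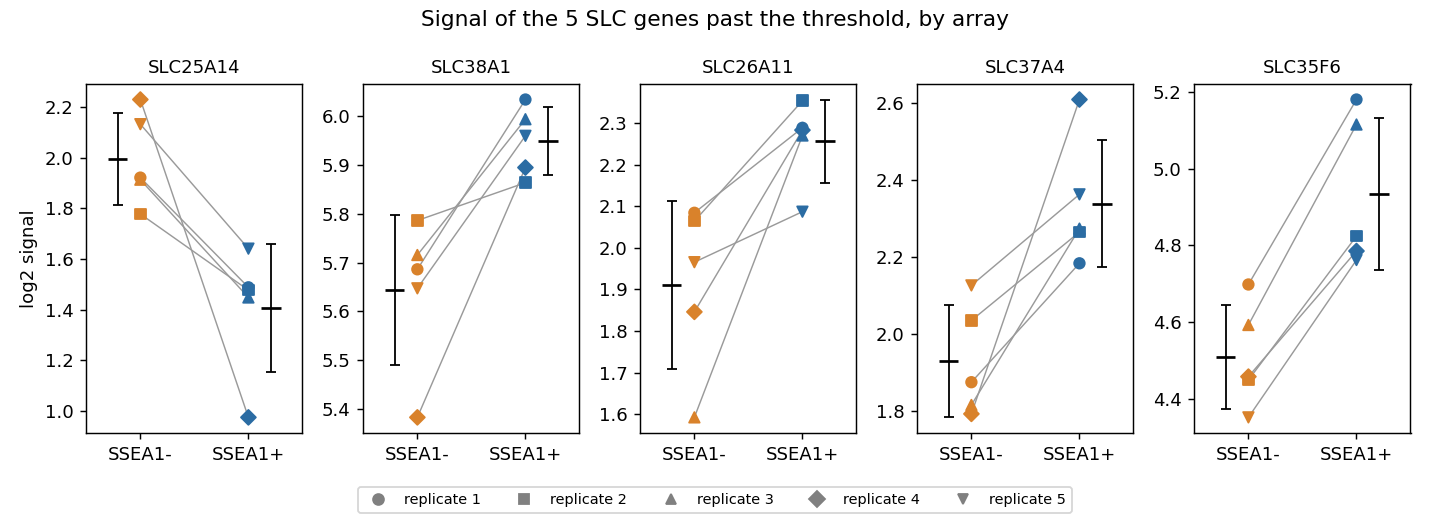
Log2 signal (vertical axis, scaled per gene) of the 5 SLC genes past the threshold, in SSEA1- (orange) and SSEA1+ (blue), with 1 marker shape per replicate number, grey lines joining same-numbered arrays, and the mean ± SD (n = 5) in black beside each fraction. In each gene all 5 arrays of a fraction lie on the same side of all 5 of the other, SLC25A14 lower and the other 4 higher in SSEA1+.

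SLC35F6 (Entrez 100513653), a member of the nucleotide sugar carrier family whose substrate is not settled, read 5.18, 4.82, 5.12, 4.79 and 4.76 in SSEA1+ and 4.70, 4.45, 4.59, 4.46 and 4.35 in SSEA1-. The fractions did not overlap, and replicates 1 and 3 were the highest in both. SLC35F6 rose by 0.42 ± 0.10 (SE, adjusted p = 0.0257 in limma), but its second probe set read the other way, -0.30 ± 0.14 (SE) at an adjusted p of 0.253, and the mean of both was 0.06. The call ended without SSEA1+ replicate 1 or 3 or SSEA1- replicate 4 or 5, at up to 0.0697. With the poly-A covariate SLC35F6 read 0.05 ± 0.15 (SE), and with the block beside it 0.27 ± 0.21 (SE).

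The rest of the SLC35 family did not pass. SLC35A4, whose substrate is likewise unsettled, read 2.89 ± 0.14 against 2.57 ± 0.20 (SD), higher in 5 of 5 pairs, with an adjusted p of 0.0783 in limma and 0.0312 with the replicate block. SLC35B1, which exchanges ATP and ADP across the ER membrane, read 5.13 ± 0.08 against 4.95 ± 0.08 (SD) with fractions that did not overlap and an adjusted p of 0.158. Of the 9, 5 read higher and 4 lower, or 55.6% higher against 47.6% of all genes.

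Among carriers of ions, SLC26A11 (Entrez 100191010), a sodium-independent sulfate carrier, read 2.29, 2.35, 2.27, 2.28 and 2.09 in SSEA1+ and 2.08, 2.06, 1.59, 1.85 and 1.97 in SSEA1-. The lowest positive array, replicate 5, and the highest negative array, replicate 1, lay close together. SLC26A11 rose by 0.35 ± 0.10 (SE, adjusted p = 0.04998 in limma), the narrowest of the 5 calls. The call ended when control probe sets were left out of the fit (0.0511), with trend and robust settings (0.0728), with array weights (0.0534), and without any single array other than SSEA1- replicate 1 or 2, at up to 0.106. Its second probe set read 0.03, and the mean of both was 0.19. SLC26A11 read 0.39 ± 0.19 (SE) with the poly-A covariate and 0.10 ± 0.27 (SE) with the block beside it.

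SLC12A4, the potassium-chloride cotransporter found in most tissues, was higher in 5 of 5 pairs, with 3.47, 3.66, 3.63, 3.18 and 3.47 in SSEA1+ and 3.22, 3.26, 3.17, 3.08 and 2.84 in SSEA1-. SSEA1+ replicate 4 lay among the negative arrays. Its difference of 0.37 ± 0.10 (SE) missed the threshold at an adjusted p of 0.0531 in limma and passed with the replicate block, at 0.0176, and it read between -0.03 and 0.45 over all alternatives. SLC8B1, the sodium-calcium exchanger of mitochondria, differed by -0.12 with an interval of -0.32 to 0.08. In this class 1 of 13 rose, none fell in limma, and 8 read higher, where 3.21%, 4.18% and 47.6% of all genes did so.

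None of 13 metal carriers passed limma. At an unadjusted p under 0.05 in limma there was 1, against 10.3% of all genes higher and 13.5% lower. It was SLC41A1, a magnesium carrier, at 1.67 ± 0.14 against 1.35 ± 0.15 (SD), higher in 5 of 5 pairs, with an adjusted p of 0.0564 and 0.0169 with the replicate block; its other 3 probe sets read from -0.10 to -0.01. SLC39A7, which releases zinc from the ER, read 5.47 ± 0.16 against 5.64 ± 0.10 (SD), lower in 4 of 5 pairs at an adjusted p of 0.290. SLC39A14, a zinc and iron importer, differed by 0.10 (interval -0.03 to 0.23), and the iron and manganese carrier SLC11A2 by -0.09 (interval -0.28 to 0.09).

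Of the carriers of vitamins, nucleosides and lipids none of 15 passed limma. At an unadjusted p under 0.05 in limma 2 did, both higher, against 10.3% of all genes higher and 13.5% lower. The choline carrier-like protein SLC44A2 read 2.66 ± 0.18 against 2.35 ± 0.07 (SD), higher in 5 of 5 pairs, with an adjusted p of 0.0518 and 0.0239 with the block, and its next probe set read 0.28. The proton-coupled folate carrier SLC46A1 read 2.00 ± 0.12 against 1.74 ± 0.10 (SD) with an adjusted p of 0.0684. SLC5A6, which imports biotin and pantothenate, differed by 0.16 (interval -0.03 to 0.35), and the nucleoside carrier SLC29A1 by 0.01 (interval -0.15 to 0.17).

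**Figure D5:**
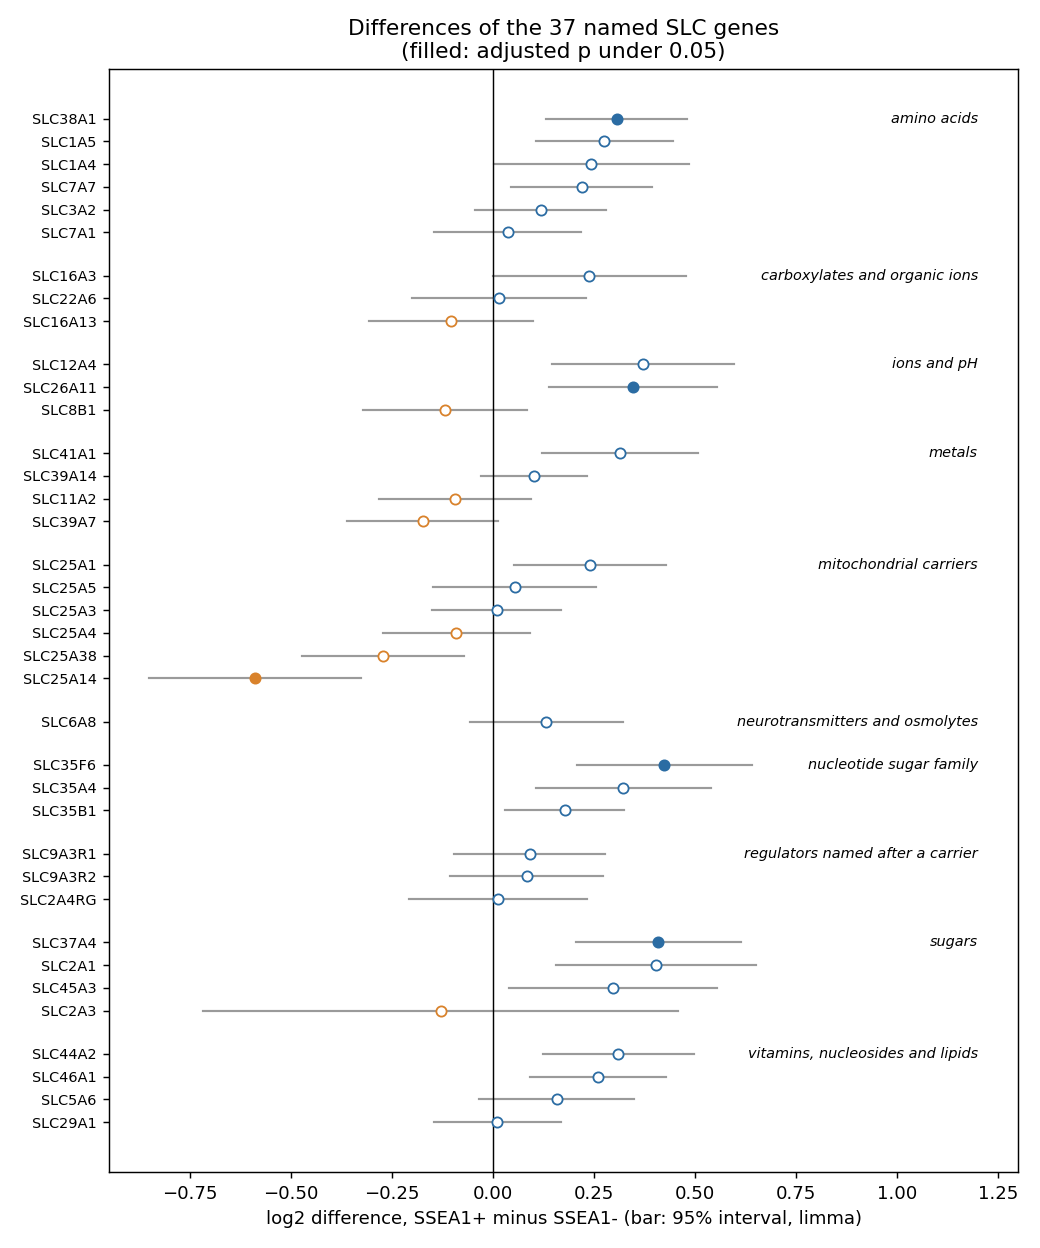
Log2 difference between SSEA1+ and SSEA1- (horizontal axis; circles, with 95% intervals from limma as bars) for 37 SLC genes grouped by class, blue for higher and orange for lower in SSEA1+, filled where the adjusted p was under 0.05. SLC37A4, SLC35F6, SLC38A1 and SLC26A11 are filled to the right and SLC25A14 to the left, and the interval of SLC2A3 is the widest.

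Among carriers of carboxylates and organic ions none of 9 passed limma, also at an unadjusted p under 0.05 (0). SLC16A3, the lactate exporter of glycolytic cells, read 0.47, 0.62, 0.65, 0.27 and 0.49 in SSEA1+ and 0.11, 0.55, 0.44, 0.23 and -0.02 in SSEA1-. It was higher in 5 of 5 pairs and straddled background in both fractions, and it read 0.24 ± 0.11 (SE) at an adjusted p of 0.253. SLC16A13 and SLC22A6 differed by -0.10 (interval -0.31 to 0.10) and 0.02 (interval -0.20 to 0.23). The creatine carrier SLC6A8 read 2.21 ± 0.11 against 2.08 ± 0.16 (SD) at an adjusted p of 0.462. The 3 regulators differed by 0.01 (SLC2A4RG), 0.09 (SLC9A3R1) and 0.08 (SLC9A3R2), none past the threshold.

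Between an adjusted p of 0.05 and 0.06 in limma there were 5 SLC genes, SLC44A2, SLC12A4, SLC1A5, SLC2A1 and SLC41A1, all higher in SSEA1+ and all past the threshold with the replicate block. This window was not counted over all genes. At a threshold of 0.1, 10.1% of SLC genes were called, 11 higher and 1 lower, against 12.6% of all genes, 359 higher and 496 lower. The block raised the share of all genes called from 7.39% to 14.3%. SSEA1+ replicate 4 was the lowest positive array of SLC12A4, SLC2A1, SLC41A1 and SLC44A2, and all but SLC1A5 of the 5 passed without it. With the poly-A covariate SLC44A2 read 0.22 ± 0.17, SLC41A1 0.19 ± 0.17 and SLC12A4 0.15 ± 0.19 (SE), and with the block beside it SLC44A2 read -0.08 ± 0.21, SLC41A1 0.04 ± 0.21 and SLC12A4 -0.03 ± 0.24 (SE). With that covariate SLC35A4 read 0.32 ± 0.20 and SLC25A38 -0.45 ± 0.17 (SE), and with the block as well 0.21 ± 0.27 and -0.22 ± 0.24 (SE).

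Genes that work with the carriers were measured for 32 of 56 listed symbols, of which 2 rose and 2 fell, where 3.21% and 4.18% of all genes did so. BSG (basigin), which escorts the SLC16 lactate carriers to the surface, read 5.13, 5.16, 5.00, 4.83 and 5.10 in SSEA1+ and 4.70, 4.74, 4.82, 4.79 and 4.61 in SSEA1-. It rose by 0.31 ± 0.08 (SE, adjusted p = 0.0349 in limma), and SSEA1+ replicate 4 was nearest to the negative arrays. EMB, the other escort, read 2.32 ± 0.20 against 2.71 ± 0.25 (SD) with an adjusted p of 0.0792 and 0.0204 with the replicate block, and their relative NPTN read 7.71 ± 0.12 against 7.91 ± 0.06 (SD) with 0.129. EMB and NPTN were named after their values were seen.

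RRAGA, a Rag GTPase that passes the amino acid signal from lysosomal carriers such as SLC38A9 to mTORC1, read from 5.75 to 5.87 in SSEA1+ and from 5.44 to 5.54 in SSEA1-. It rose by 0.31 ± 0.06 (SE, adjusted p = 0.0102 in limma), and it was the single call among 9 measured genes of lysosomal amino acid sensing, whose median was 0.03. SLC38A9 itself, named for its link to RRAGA, read 3.81 and 3.64 at an adjusted p of 0.398. OXSR1, a kinase that acts on SLC12 cotransporters, fell by 0.54 ± 0.12 (SE, adjusted p = 0.0179), from 4.75 ± 0.11 to 4.21 ± 0.28 (SD). ATF4, a transcription factor that induces many amino acid carriers, fell by 0.31 ± 0.08 (SE, adjusted p = 0.0395), while the mean over its probe sets read -0.13.

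The call of RRAGA held without any single array and ended without both arrays of replicate 1, 3 or 5. That of OXSR1 ended without SSEA1+ replicate 5 (0.0519) and without both arrays of replicate 3 (0.105), 4 (0.0595) or 5 (0.0704). That of BSG held in 3 and that of ATF4 in 2 of the 10 single-array leave-outs, and all 4 ended with the poly-A covariate, where ATF4 read -0.13 ± 0.15, BSG 0.26 ± 0.15, RRAGA 0.22 ± 0.11 and OXSR1 -0.64 ± 0.23 (SE). None of 5 measured sodium pump genes passed limma, also at an unadjusted p under 0.05 (0), with ATP1B1 at 6.28 ± 0.21 against 6.17 ± 0.12 and ATP1B3 at 8.26 ± 0.07 against 8.29 ± 0.11 (SD). These 5 of 10 listed were ATP1B1, ATP1B3, FXYD5, FXYD6 and FXYD3, the last above background on 1 array. No catalytic alpha subunit was among them, so the pump was seen only in part. None of 9 genes of zinc and iron handling passed limma, with 1 at an unadjusted p under 0.05.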

How the data were processed

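The authors deposited log2 signals, made with RMA per the submitters' processing notes; its version is not given in the sources used here. As a check of the scale, spiked hybridisation controls gained 0.936 to 1.06 signal units per doubling of concentration, with the supplier's concentrations taken as known. Of each array's values 4.55% to 8.16% lay below 0, where a difference is least sure. Symbols came from the platform annotation, and 117 of 119 SLC genes matched the RefSeq table of Sscrofa11.1 by Entrez identifier, all with the same symbol. Fractions were compared in limma 3.58.1 (lmFit, eBayes; R 4.3.3) over 24123 probe sets, 188 controls included, with Benjamini-Hochberg adjustment and a threshold of 0.05. The procedure was tested on simulated data. Detection is stated for every member. Differences are given for genes that passed, for the 3 smallest p-values of each class among genes detected on all arrays, for 18 measured landmark carriers, for genes whose probe sets disagree, and for partner genes that passed. The members and lists were chosen with earlier results of these data known. The replicate numbers were taken as pairs, from the series text and since deviations of same-numbered arrays correlated at 0.214, 0.580, 0.356, 0.119 and 0.247 over all probe sets. Over SLC genes alone they were 0.304, 0.544, 0.428, -0.062 and 0.364, with replicate 4 below 0. The block was an alternative. No genome or sequences were used here, so a planned count of promoter motifs was not run.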

Additional observations from a re-analysis of the deposited data

Results flagged for a closer look

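In 3 of 82 groups of 5 arrays, over the named genes, a single array stood far from the other 4; chance gives about 5 in 100. SLC25A14 read 0.975 in SSEA1+ replicate 4, with the other positive arrays between 1.45 and 1.64. SLC2A3 read 2.20 in SSEA1+ replicate 3, with the others between 3.12 and 3.38. SLC25A1 read 4.71 in SSEA1- replicate 3, with the others between 4.52 and 4.55.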

How the results depend on the processing

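The number of SLC genes higher in SSEA1+ was 4, and it was 10 with the replicate block, 11 with a random replicate block, 9 with repeated quantile normalization, cyclic loess or median centring, 8 with a filter on low values, 7 with array weights, 1 with the mean over probe sets, 11 at a threshold of 0.1 and 0 at 0.01, where 20 had an unadjusted p under 0.05. The number lower was 1, and it was 2 with either block and 0 at 0.01. The share of all genes called in either direction, 7.39%, moved as well. It was 14.3% with the replicate block, 13.2% with the random block and 7.27% to 7.35% with the other scalings. With the filter it was 9.40%, with array weights 10.2% and with the mean over probe sets 6.46%. At a threshold of 0.1 it was 12.6%, and 1.76% at 0.01. With the poly-A covariate, alone or with the block, both numbers were 0 in limma, where 0.0887% and 0.0148% of all genes passed. Leaving out arrays or pairs gave 0 to 9 higher and 0 to 1 lower, with 1.70% to 9.80% of all genes called. The median over SLC genes stayed between 0.00 and 0.04 in all settings run. No named gene with a call changed sign, while 18 of 32 named SLC genes without a call did so in at least 1 alternative. Of the 7 calls the block added, SLC12A4, SLC1A5, SLC2A1, SLC41A1 and SLC44A2 also passed after quantile normalization, cyclic loess and median centring. No positive array had a poly-A level as low as any negative array, so values with that covariate are extrapolated. The cause of these shifts was not tested.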
